A study of Mus musculus with 79 samples.

Results

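The 172 genes described here are mouse zinc finger genes on chromosomes 7, 13 and 17. They were picked from the 35230 genes of the deposited expression table by name and place alone. The name had to be Zfp, a number and at most 1 letter, the chromosome had to be 7, 13 or 17, and Zfp57 was left out. Chromosome 7 held 92 of them, chromosome 13 held 36 and chromosome 17 held 44. Of the 172, 161 reached a group mean of 1 RPKM (reads per kilobase of transcript, scaled to sequencing depth) in at least 1 of 28 groups and are described below. The other 11 stayed under it everywhere. Zfp784 (0.969 RPKM in its highest group), Zfp112 (0.872) and Zfp108 (0.854) lay just under this level, and Zfp78 (1.07), Zfp974 (1.09) and Zfp14 (1.13) just over it.

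The study measured polyadenylated RNA in 79 libraries from 4 mouse embryonic stem cell (ESC) lines. TET KO lacks Tet1, Tet2 and Tet3, the enzymes that oxidise 5-methylcytosine, and TET WT is its parental wild-type line. DNMT KO lacks the DNA methyltransferases Dnmt1, Dnmt3a and Dnmt3b, and DNMT WT is the parent of that line. Each line was sampled as ESCs in 2i/Lif medium (ESC D0), as epiblast-like cells after 1 and 2 days (EpiLC D1, EpiLC D2), and as embryoid bodies (EB), aggregates that form several early cell types, at days 2, 4, 6 and 8 (EB D2 to EB D8). There were 28 groups, 23 of 3 libraries and 5 of 2. The groups of 2 were the EB D2 groups of both knockouts and the DNMT WT groups of ESC D0, of EpiLC D1 and of EB D4. With 1 line per genotype, a knockout's effect and any other difference from the parental line cannot be told apart. Nothing in the labels says whether replicates came from separate cultures, and p-values therefore measure only the spread between these libraries. In embryoid bodies, fewer cells of a type and less RNA per cell cannot be told apart. Depth was 7.76 to 13.9 M reads per library. Dnmt1 was at 39.4 to 63.2 RPKM over the DNMT WT libraries and 3.63 to 6.49 over the DNMT KO libraries. Tet1 RNA was still measured in TET KO (2.52 to 13.5 RPKM, against 2.33 to 26.3 in TET WT), and a value over the whole gene is no check of a deletion inside it.

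Most genes of this kind encode proteins with an array of C2H2 zinc fingers that reads DNA sequence, and many carry an N-terminal KRAB box. The KRAB box recruits Trim28, which brings in the H3K9 methyltransferase Setdb1, heterochromatin proteins and DNA methylation, and the best known targets are endogenous retroviruses and imprinted regions in early embryos and ES cells. KRAB zinc finger genes arose by local duplication and sit in runs of near relatives, of which chromosomes 7, 13 and 17 hold several. By a sequence search of the annotated proteins, 126 of the 172 genes had a KRAB-like box, and the median number of fingers with the classical spacing was 11 (at most 33). No such finger was found in Zfp36, an RNA-binding protein with fingers of another kind that shortens the life of AU-rich messages, in Zfp346, a protein that binds double-stranded RNA, or in Zfp935. Runs, defined as at least 5 members with neighbouring starts no more than 300000 bases apart, held 121 of the 172 genes, in 11 runs. The run with most members was on chromosome 13 (chr13:67038596-67827002, GRCm38), with 23 members from Zfp712 to Zfp273, all 23 of them KRAB-like. This stretch also holds Rsl1, a KRAB zinc finger repressor of sex-biased liver genes. The next were chr17:21383748-22456689 (18 members, 18 KRAB-like) and chr7:29768552-30169750 (15 members, 11 KRAB-like).

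The promoters of 5 genes that the results below turn on are shown first. Zfp874a, from the chromosome 13 run, was higher in TET KO at every condition, and Zfp712, from the same run, was higher in TET KO at some and carries the same first motif. Averaged over the 7 conditions, the TET KO log2 change was -0.31 to 1.85 in 9 members of the run with this motif. In 6 members of the run without this motif it was -0.43 to 1.03. Zfp459, also from this run, and Zfp819 and Zfp296, from chromosome 7, were 3 of the 4 members that rose most in late DNMT KO embryoid bodies. The other, Zfp936, had no match in the promoter table used here. Each sequence is the 250 bases upstream of the RefSeq start (GRCm38.p6), 5′ to 3′ on the gene's strand. Capitals mark GGGAANTGTAGT, the commonest 12-letter word with 1 open inner letter in the promoters of these genes, and TGACGTCA, the palindromic cAMP response element. The first word resembles an element known to be bound by Zfp143 and Thap11.
Zfp874a, chr13:67451625-67451874, minus strand: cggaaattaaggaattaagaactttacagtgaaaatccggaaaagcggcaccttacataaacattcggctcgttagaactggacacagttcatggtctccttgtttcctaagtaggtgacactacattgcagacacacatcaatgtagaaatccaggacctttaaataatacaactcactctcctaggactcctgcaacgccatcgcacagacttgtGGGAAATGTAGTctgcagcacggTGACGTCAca
Zfp712, chr13:67061171-67061420, minus strand: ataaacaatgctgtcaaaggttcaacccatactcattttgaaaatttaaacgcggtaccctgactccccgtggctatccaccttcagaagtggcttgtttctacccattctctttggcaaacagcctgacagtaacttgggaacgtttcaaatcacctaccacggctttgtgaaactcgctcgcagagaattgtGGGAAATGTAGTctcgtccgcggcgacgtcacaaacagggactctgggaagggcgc
Zfp459, chr13:67421419-67421668, minus strand: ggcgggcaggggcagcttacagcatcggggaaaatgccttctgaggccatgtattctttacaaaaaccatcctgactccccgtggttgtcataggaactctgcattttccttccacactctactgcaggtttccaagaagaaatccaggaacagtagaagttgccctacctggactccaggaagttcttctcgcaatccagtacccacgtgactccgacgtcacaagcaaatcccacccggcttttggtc
Zfp819, chr7:43606919-43607168, plus strand: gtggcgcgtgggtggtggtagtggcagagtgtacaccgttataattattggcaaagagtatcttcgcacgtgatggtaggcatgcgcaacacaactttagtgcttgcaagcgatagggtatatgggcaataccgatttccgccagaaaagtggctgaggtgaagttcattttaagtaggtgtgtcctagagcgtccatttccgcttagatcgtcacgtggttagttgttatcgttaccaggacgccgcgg
Zfp296, chr7:19577037-19577286, plus strand: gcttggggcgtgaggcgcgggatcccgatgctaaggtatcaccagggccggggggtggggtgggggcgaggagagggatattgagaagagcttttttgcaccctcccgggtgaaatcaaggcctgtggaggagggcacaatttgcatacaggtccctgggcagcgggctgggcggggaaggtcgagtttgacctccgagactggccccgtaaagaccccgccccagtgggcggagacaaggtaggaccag
The upstream 250 bases were matched for 136 of the 172 genes and for 27025 genes in all, and motifs were searched on both strands. GGGAANTGTAGT was in 30 of the 136 (22.1%) and in 0.936% of all promoters. It was picked for its frequency in these genes. It was unevenly spread over the runs: 10 of 16 promoters in the chromosome 13 run held it, 10 of 14 in the chr7:29768552-30169750 run and 5 of 7 in the chr7:24081924-24587641 run, against 0 of 16 and 0 of 12 in the runs of chromosome 17. TGACGTCA was in 7 of the 136 (5.15%) and in 1.56% of all promoters, and 5 of the 7 were in the chromosome 13 run. The median promoter held 9.5 CpG dinucleotides, against 5 over all promoters, and 50% of the members against 37.7% of all promoters held 10 or more.

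These genes were expressed at low to moderate levels. In a single library, 125 to 154 of the 172 were at 1 RPKM or more, and their median was 1.84 to 3.42 RPKM, below the median of all tested genes in the same libraries (2.98 to 5.57). The highest group mean was 5 RPKM or more for 88 genes, 10 or more for 38 and 20 or more for 14. Averaged over the 28 groups, the most abundant were Zfp428 (33.5 RPKM), Zfp568 (25.9), Zfp598 (23.0), Zfp553 (18.7), Zfp110 (17.3), Zfp936 (16.8), Zfp141 (14.4) and Zfp146 (13.4). Zfp568 is a KRAB protein that silences a placental Igf2 transcript and is needed for gastrulation, Zfp598 is a ubiquitin ligase that marks collided ribosomes, and Zfp110 is a partner of the p75 neurotrophin receptor. The groups differed most for Zfp936, with an SD of 2.03 over the 28 group means on the log2(RPKM + 0.5) scale, followed by Zfp819 (1.58), Zfp296 (1.44), Zfp977 (1.44), Zfp629 (1.39) and Zfp768 (1.25).

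Differences were tested with limma on log2(RPKM + 0.5), with p-values adjusted over all 15267 genes tested. A gene was called where the adjusted p was under 0.05 and the change at least 1 on this log2 scale. The scale understates the change of genes near or under 0.5 RPKM. The filter, 1 RPKM in at least 2 libraries, passed 162 of the 172 genes, and 191 of 219 genes with the same kind of name on other chromosomes.

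The wild-type lines show what these genes did as cells left the ESC state. A group of genes high in ESCs was nearly lost by EB D8, while another group rose. Zfp936 was at 31.8 and 34.9 RPKM in the DNMT WT ESC libraries and 23.3, 24.3 and 24.7 in TET WT. At EB D8 it was at 0.128, 0.144 and 0.198 RPKM in DNMT WT and 0.174, 0.304 and 0.423 in TET WT. The groups were far from overlapping, and the log2 change was -5.69 in DNMT WT and -4.96 in TET WT. Zfp296, a pluripotency-associated factor that binds Klf4, fell by 4.95 and 3.78 in the same order on the log2 scale. Zfp819, a KRAB gene active in ES cells, fell by 4.09 and 4.31, Zfp977 by 4.26 and 3.55, and Zfp960 by 2.83 and 2.51. Zfp960 shares 82.7% of its 50-base words with Zfp97, so reads of this pair may have been split or lost. In the other direction, Zfp768 was at 0.559 and 0.594 RPKM in DNMT WT ESCs and at 11.3, 12.3 and 13.1 at EB D8, a log2 change of 3.57 (3.16 in TET WT). Zfp629 rose by 4.03 and 2.84, Zfp579 by 2.33 and 2.15, Zfp128 by 1.52 and 1.61, and Zfp36 by 1.92 and 1.44 in DNMT WT and TET WT.

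At EB D8 against ESC D0, 17 members rose and 24 fell in DNMT WT, beside 23.3% and 14.4% of all genes (37.7% in either direction). In TET WT 13 rose and 26 fell, beside 20.3% and 12.4% of all genes (32.7%). The lines shared 13 of these rises and 18 of these falls, and no member was called in opposite directions. The overlap over all genes is not given, here or for EpiLC D2 below, so the sharing is not read as a trait of the members. With each library centred on its median, the split was 13 up and 30 down in DNMT WT, beside 2711 and 3150 of the 15267 genes tested. In TET WT it was 8 up and 33 down, beside 2426 and 2774. The median change of all genes moved from 0.11 to -0.20 in DNMT WT and from 0.04 to -0.22 in TET WT.

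At EpiLC D2 against ESC D0, 4 members rose and 12 fell in DNMT WT, beside 7.47% and 9.14% of all genes (16.6%), and 13 rose and 20 fell in TET WT, beside 11.9% and 15.8% (27.6%). Both lines called 2 rises, Zfp948 (log2 change 1.64 in DNMT WT, 2.61 in TET WT) and Zfp677 (1.35 and 1.62), and 4 falls, Zfp553 (-1.24 and -2.43), Zfp976 (-1.57 and -1.45), Zfp820 (-1.85 and -1.10) and Zfp59 (-1.74 and -1.06). Zfp948 was at 3.40, 3.56 and 3.82 RPKM in TET WT ESCs and 23.3, 24.7 and 25.6 at EpiLC D2. In DNMT WT it went from 1.57 and 2.62 to 6.45, 7.23 and 8.70 RPKM. No ESC library reached an EpiLC D2 library of the same line, and the TET WT level at EpiLC D2 was above every DNMT WT one. The split of calls depended on the scaling. With centred libraries it was 6 up and 10 down in DNMT WT, beside 1310 and 1237 of the 15267 genes tested. In TET WT it was 23 up and 10 down, beside 2908 and 1496, and the median of all genes moved there from 0.00 to 0.30. In TET WT the fall of Zfp820 was -0.80 and that of Zfp59 -0.76 with centred libraries, both under the threshold, and the fall of Zfp820 was also under it (-0.997) without the replicate 2 libraries. The lines also differed by kind of gene. The median change at EpiLC D2 was 0.23 over the KRAB-like members and -0.52 over the others in TET WT, and -0.16 and 0.06 in DNMT WT. This difference between the lines was not tested.

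In the line without DNA methyltransferases no member was called until the embryoid bodies were several days old. Few genes of any kind were called before then, 0.95% to 1.59% of all genes at a condition. Later, a set of zinc finger genes expressed in ESCs was higher than in the parental line. Called higher at 1 or more of the 7 conditions were 10.5% of the members tested, beside 15.2% of all genes. By limma, 0 members were called in DNMT KO ESCs, beside 0.511% of all genes higher and 0.524% lower (1.03%). There were 0 at EpiLC D1, beside 0.478% and 0.472% (0.95%), 0 at EpiLC D2, beside 1.09% and 0.498% (1.59%), and 0 at EB D2, beside 0.937% and 0.203% (1.14%). At an unadjusted p under 0.05 there were 44, 24, 27 and 29 members in these conditions, and limma voom on recovered reads called 2, 1, 0 and 0. No share over all genes is set beside these counts, and they are not read as a result about the members. Without DNMT KO replicate 3, 1 member was called at EB D2. At EB D4, 5 members rose and 0 fell, beside 4.51% and 1.31% of all genes (5.82%). At EB D6, 14 rose and 4 fell, beside 11.1% and 6.88% (17.9%), and at EB D8, 15 rose and 3 fell, beside 9.76% and 9.1% (18.9%). The members called were 11.1% of the 162 tested at both times. Voom called 28 members (17.3%) at both times, beside 27.1% of all genes at each. With no filter on low values the members' share was the higher one, 10.5% of 172 at both times, beside 7.86% of all 35230 genes at EB D6 and 8.39% at EB D8. The filter had passed 162 of the 172 members but 15267 of the 35230 genes. The unfiltered share of all genes thus counts many genes of low level. EB D6 and EB D8 shared 13 rises and 2 falls of members, and the same overlap over all genes is not given.

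**Figure D1:**
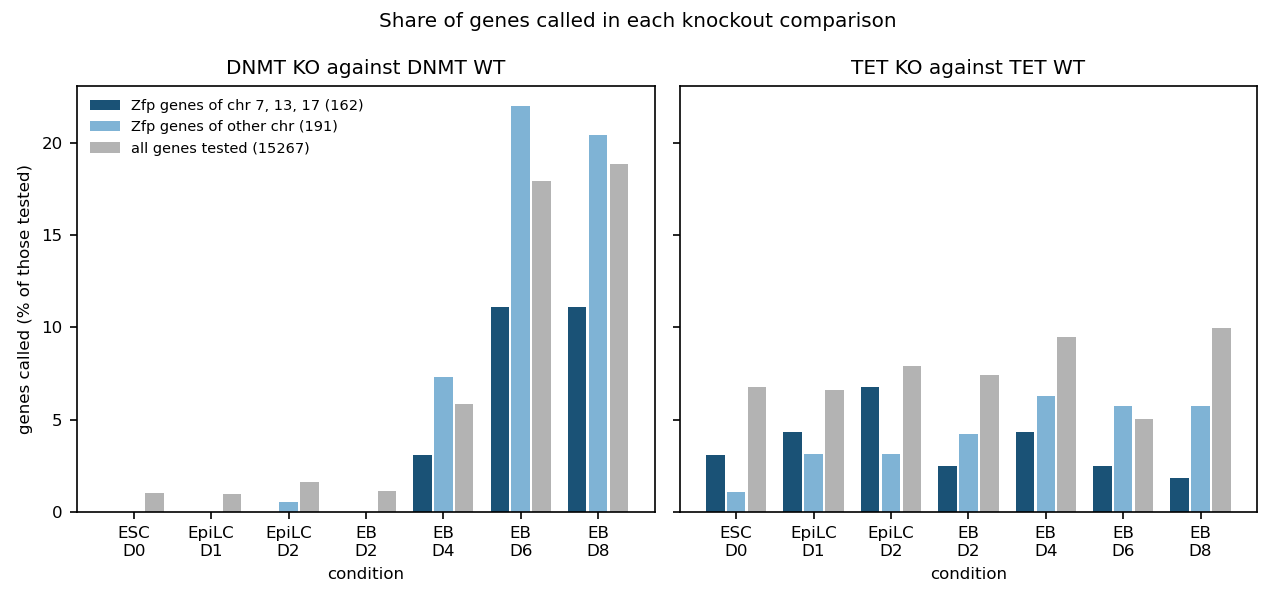
Percent of genes called in each knockout against its parental line, by condition. Bars give the 162 zinc finger genes tested on chromosomes 7, 13 and 17, the 191 tested on other chromosomes and all 15267 genes tested. In DNMT KO the bars are near 0 until EB D2 and rise to 11.1% of the 162 genes at EB D8, beside 18.9% of all genes.

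Zfp459, Zfp936, Zfp819 and Zfp296 carried the largest of these changes. Zfp459, a KRAB gene of the chromosome 13 run, was at 3.56 and 3.64 RPKM in DNMT WT ESCs and at 2.94, 3.13 and 3.17 in DNMT KO ESCs. By EB D8 it was at 0.297, 0.373 and 0.669 RPKM in DNMT WT and at 12.04, 13.04 and 15.2 in DNMT KO. The knockout libraries were slightly below the wild-type ones in ESCs and far above them at EB D8 (log2 change 3.89 ± 0.17 SE, adjusted p = 6.05e-10). Zfp936 at EB D8 was at 0.128, 0.144 and 0.198 RPKM in DNMT WT and 6.21, 6.39 and 6.60 in DNMT KO (log2 change 3.40 ± 0.13). The knockout level at EB D8 was itself well below the 23.7 to 25.1 RPKM of DNMT KO ESCs. Zfp819 was at 0.0263, 0.102 and 0.115 RPKM in DNMT WT and 4.51, 4.67 and 5.05 in DNMT KO (3.18 ± 0.19), and Zfp296 at 0.788, 0.823 and 1.03 against 11.7, 12.2 and 12.7 (3.21 ± 0.13). The groups of these genes did not overlap at EB D8, and in DNMT WT all 4 were below their ESC level in every library.

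**Figure D2:**
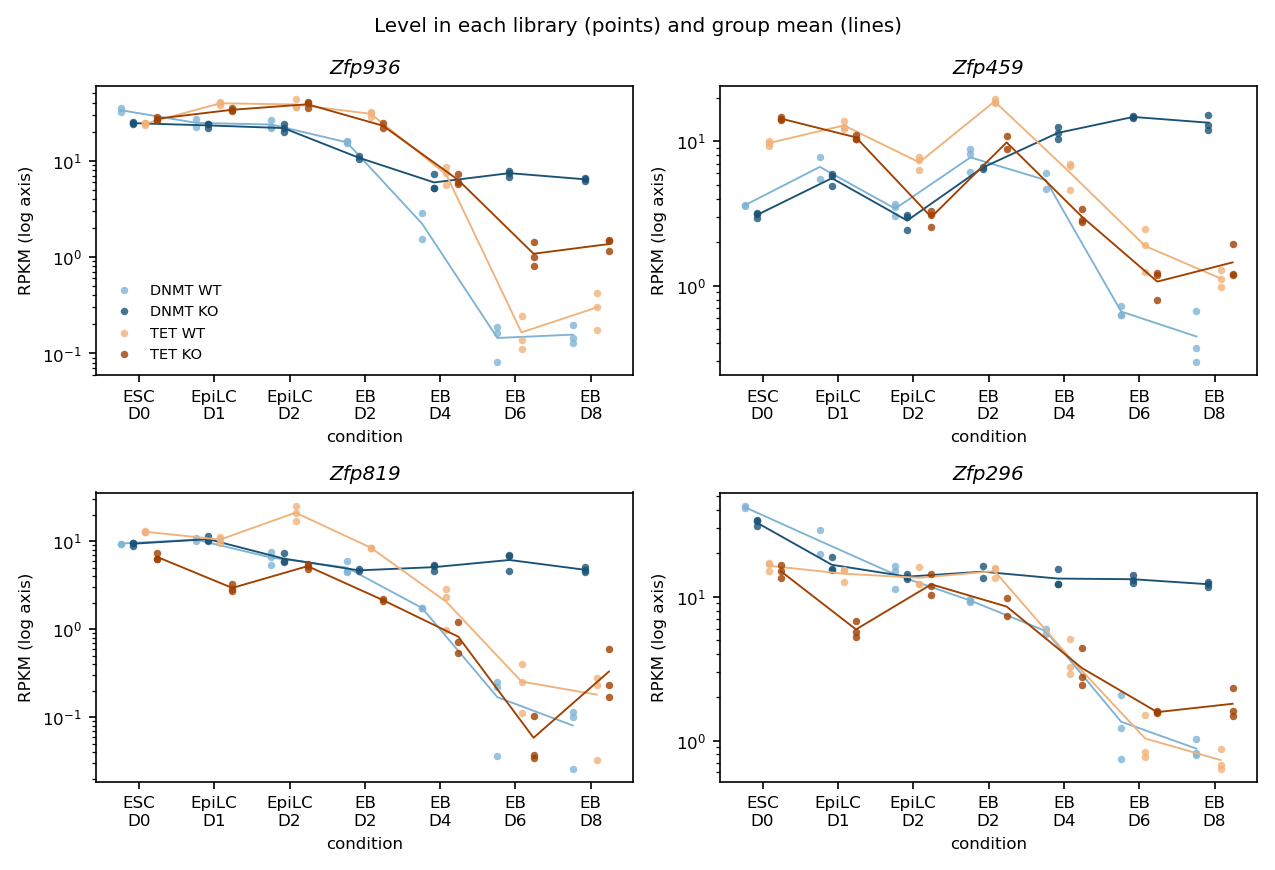
RPKM (log axis) of Zfp936, Zfp459, Zfp819 and Zfp296 by condition, with points for libraries, lines through the group means and genotypes in different colours. The 3 DNMT KO libraries lie above the 3 DNMT WT libraries of each gene at EB D8, by 3.18 to 3.89 on the fitted log2 scale, while at ESC D0 the mean of the DNMT KO libraries is below that of DNMT WT.

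These changes appeared after EB D2. At EB D6 the log2 change was 3.71 for Zfp459, 3.62 for Zfp936, 3.30 for Zfp819 and 2.95 for Zfp296, near the EB D8 values, and the difference between EB D6 and EB D8 was not tested. The knockout effect at EB D8 was larger than at ESC D0 by 4.09 for Zfp459, 3.83 for Zfp936 and 3.56 for Zfp296 on the log2 scale (limma, adjusted p at most 1.04e-12 for each). By this contrast 19 members had a higher and 2 a lower effect at EB D8, beside 10.8% and 9.73% of all genes (20.5%). The first calls came at EB D4, at Zfp819 (1.31), Zfp936 (1.27), Zfp296 (1.14), Zfp459 (1.02) and Zfp948 (1.01). These early calls were less firm. DNMT WT had 2 libraries there, the count fell from 5 to 2 without DNMT WT replicate 2, to 3 with the replicate number as a block, and to 3 with centred libraries. Zfp936 was at 0.91 without DNMT WT replicate 2, and the adjusted p of Zfp819 was 0.0503 and 0.0515 without DNMT WT replicate 1 and replicate 2. With no filter on low values the adjusted p of Zfp948 was 0.089.

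Other members rose less in DNMT KO. Zfp977 was at 0.331, 0.404 and 0.412 RPKM in DNMT WT at EB D8 and at 3.86, 4.09 and 4.56 in DNMT KO (log2 change 2.40 ± 0.22). Zfp59 (1.64), Zfp428 (1.63), Zfp773 (1.37), Zfp229 (1.32), Zfp808 (1.31), Zfp710 (1.24), Zfp941 (1.20), Zfp960 (1.15), Zfp119b (1.10) and Zfp97 (1.02) also rose at EB D8. Zfp428, the most abundant member, was at 10.8, 11.3 and 12.05 RPKM in DNMT WT and 33.5, 35.2 and 40.4 in DNMT KO, above every wild-type library but under the 50.6 to 55.1 RPKM of DNMT KO ESCs. Of the 15 members that rose, 12 were KRAB-like, beside 121 of the 162 members tested (74.7%). The 3 that fell at EB D8 were Zfp768 (-1.35), Zfp629 (-1.31) and Zfp579 (-1.05), and none was KRAB-like. Zfp768 was at 11.3, 12.3 and 13.1 RPKM in DNMT WT and 4.08, 4.62 and 4.80 in DNMT KO, and Zfp629 at 7.67, 8.08 and 8.65 against 2.68, 2.84 and 3.49. At EB D6 Zfp592 (-1.37) and Zfp128 (-1.07) fell as well, and Zfp36 rose (1.14) there only. Zfp59 shares 52.4% of its 50-base words with another gene, so its reads may be miscounted.

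Most members called in DNMT KO at EB D6 and EB D8 also changed during wild-type differentiation, in the opposite direction. The overlap for EB D4 is not given. Because DNMT WT is the control of this comparison, the TET WT line, which shares no library with it, was used for the course. Of the 15 members higher in DNMT KO at EB D8, 14 fell from ESC D0 to EB D8 in TET WT, which is 93.3% of the 15 and 53.8% of the 26 members that fell there, and Zfp773 was the exception. Over all genes the same share was 828 of 1490 (55.6%), and for zinc finger genes of other chromosomes 21 of 24 (87.5%). The 3 members lower in DNMT KO at EB D8 all rose in TET WT, 23.1% of the 13 that rose, and over all genes 84.7% of those lower in DNMT KO rose. Of the 14 members higher at EB D6, 12 (85.7%) fell over the same TET WT course. Over all genes this share was 48.8%, and for zinc finger genes of other chromosomes 88.5%. Of the 4 members lower at EB D6, 3 (75%) rose, beside 80.5% over all genes. Marker levels moved in the EB D8 libraries. The sum of 5 naive pluripotency markers was 27.2 to 29.5 RPKM in DNMT WT at EB D8 and 204.5 to 212.1 in DNMT KO, with 2 of the 5 called higher. The sum of 5 blood and endothelial markers was 3455 to 3481 RPKM against 124 to 149, with 4 of 5 lower, and that of 5 fibroblast markers 229 to 240 against 14.4 to 17.2, with 4 of 5 lower. All 3 neural and all 3 EpiLC markers were higher, 2 of 3 endoderm markers were lower, and 0 of 4 mesoderm markers were called. At EB D4, 5 blood and endothelial, 3 naive, 2 endoderm, 2 neural and 1 mesoderm markers were higher in DNMT KO. There, 2 mesoderm, 1 EpiLC and 1 fibroblast markers were lower. At EB D6, 3 naive, 3 neural, 2 EpiLC, 1 blood and endothelial and 1 endoderm markers were higher. Lower there were 4 mesoderm, 3 blood and endothelial, 3 fibroblast, 2 endoderm and 1 naive markers. The part of cell composition in the zinc finger changes was not tested. The median change of the 162 members at EB D8 was 0.08, beside 0.01 over all genes.

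In the line without TET enzymes members were called at every condition, most of them rises, with Zfp874a among them each time. At ESC D0, 5 members rose and 0 fell, beside 4.61% and 2.17% of all genes (6.78%). EpiLC D1 had 5 rises and 2 falls, beside 3.35% and 3.28% (6.62%), and EpiLC D2 had 8 and 3, beside 4.8% and 3.1% (7.9%). In embryoid bodies there were 3 rises and 1 fall at EB D2, beside 4.7% and 2.71% (7.41%), and 7 and 0 at EB D4, beside 7.6% and 1.87% (9.47%). At EB D6 there were 4 and 0, beside 3.24% and 1.78% (5.02%), and EB D8 had 3 and 0, beside 5.84% and 4.14% (9.98%). How the members' share compared with that of all genes depended on the filter. Among the filtered genes it was the lower one in each of these 7 comparisons with pseudocounts of 0.5 and 0.1, with centred libraries and with voom. With a pseudocount of 1 it was 4.94% beside 4.93% at EpiLC D2. With no filter it was the higher one at EpiLC D1 (4.65% of 172 members beside 2.82% of 35230 genes), at EpiLC D2 (6.40% beside 3.50%) and at EB D6 (2.33% beside 2.17%). The unfiltered share of all genes counts many genes of low level. The filter had passed 162 of the 172 members but 15267 of the 35230 genes. Voom called more of both, for example 19 members (11.7%, beside 15.1% of all genes) at EpiLC D1, 16 (9.88%, beside 17.7%) at EB D4 and 15 (9.26%, beside 17.4%) at EB D8.

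Over the 7 conditions, 22 members (13.6%) were called at least once in TET KO, beside 29.4% of all genes. Of these 18 rose (11.1%, beside 19.6%) and 4 fell (2.47%, beside 12%). The chromosome 13 run, which holds 21 of the 162 tested members (13%), had 10 of the 18 rises. In DNMT KO 22 were called at least once, beside 27% of all genes, 17 up (10.5%, beside 15.2%) and 5 down (3.09%, beside 13%), with 1 of the 17 in that run. The TET counts moved with the scaling. With centred libraries ESC D0 had 5 rises and 1 fall, beside 533 and 438 of the 15267 genes tested. EB D2 had 2 and 4, beside 530 and 508, and EB D4 had 1 and 2, beside 618 and 579. Without centring, all genes at EB D4 had 1160 rises and 286 falls. The median change of all genes at EB D4 moved from 0.19 to -0.11. Without TET WT replicate 2, EB D4 had 4 rises and 2 falls. This library had the lowest depth of the series (7.76 M reads). Its median over all tested genes was 3.12 RPKM, against 4.35 and 4.37 in TET WT replicates 1 and 3 at EB D4. At EB D2 leaving out TET KO replicate 2 gave 7 calls, and at EB D8 leaving out TET WT replicate 3 gave 6 and TET KO replicate 1 or 2 gave 5. The counts with a library left out stand without the shares over all genes. Marker levels differed in the EB D4 libraries as well. The sum of 4 mesoderm markers was 8.22 to 11.3 RPKM in TET WT and 574 to 601 in TET KO, with 3 of the 4 called higher. The sum of 3 neural markers was 10.5 to 16.7 RPKM against 0.706 to 1.39, with 2 of 3 lower. Of the others, 1 of 5 naive and 1 of 5 fibroblast markers were higher, 1 of 3 EpiLC and 2 of 5 blood and endothelial markers lower, and 1 of 3 endoderm markers was higher and 2 lower. The part of cell composition in the EB D4 rises was not tested.

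Zfp874a was the 1 member called in all 7 conditions. It is a KRAB gene in the middle of the chromosome 13 run, and its promoter, printed above, holds both motifs. In ESCs it was at 0.657, 0.708 and 0.752 RPKM in TET WT and 3.71, 3.76 and 4.22 in TET KO (log2 change 1.87 ± 0.09 SE, adjusted p = 1.32e-07). At EpiLC D1 it was at 1.14, 1.14 and 1.17 RPKM against 7.31, 8.37 and 8.85 (2.39 ± 0.11), and at EB D8 at 0.625, 0.629 and 0.749 against 2.52, 2.71 and 2.75 (1.44 ± 0.10). TET KO lay above TET WT without overlap in each condition. The DNMT lines were near the TET WT level in ESCs, 0.679 and 0.824 RPKM in DNMT WT and 0.632, 0.640 and 0.753 in DNMT KO. Averaged over the 7 conditions the TET KO change was 1.85 ± 0.04 (adjusted p = 1.21e-42), above the threshold under every alternative tried.

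Other genes of the run were higher in TET KO at some conditions. Zfp429 was called at 4 conditions. In ESCs it was at 0.556, 0.647 and 0.983 RPKM in TET WT and 2.03, 2.14 and 3.28 in TET KO (1.27 ± 0.20), and at EB D6 at 1.003, 1.23 and 1.58 against 3.58, 3.91 and 4.97 (1.40 ± 0.18). It was lower in the DNMT lines than in TET WT, with 0.162 and 0.339 RPKM in DNMT WT ESCs and 0.0442, 0.0813 and 0.250 in DNMT KO ESCs, and it shares 25% of its 50-base words with Rsl1. Zfp273, called at 3 conditions, was at 0.977, 1.19 and 1.92 RPKM in TET WT at EpiLC D2 and 3.45, 4.33 and 5.05 in TET KO (1.38 ± 0.18). Zfp712 was at 0.652, 0.702 and 0.766 RPKM in TET WT at EpiLC D1 and 2.06, 2.08 and 2.57 in TET KO (1.18 ± 0.19). In each of these comparisons every TET KO library was above every TET WT library. Zfp493 (1.32 at ESC D0), Zfp874b (1.16 at EpiLC D2), Zfp738 (1.19 at EpiLC D2), Zfp85 (1.07 at EpiLC D1), Zfp708 (1.03 at EpiLC D2) and Zfp455 (1.05 at EB D4) were the others. Zfp708, which keeps DNA methylation at a class of retroviral elements in embryos, shares 94.9% of its 50-base words with Gm28557, so its value is uncertain.

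**Figure D3:**
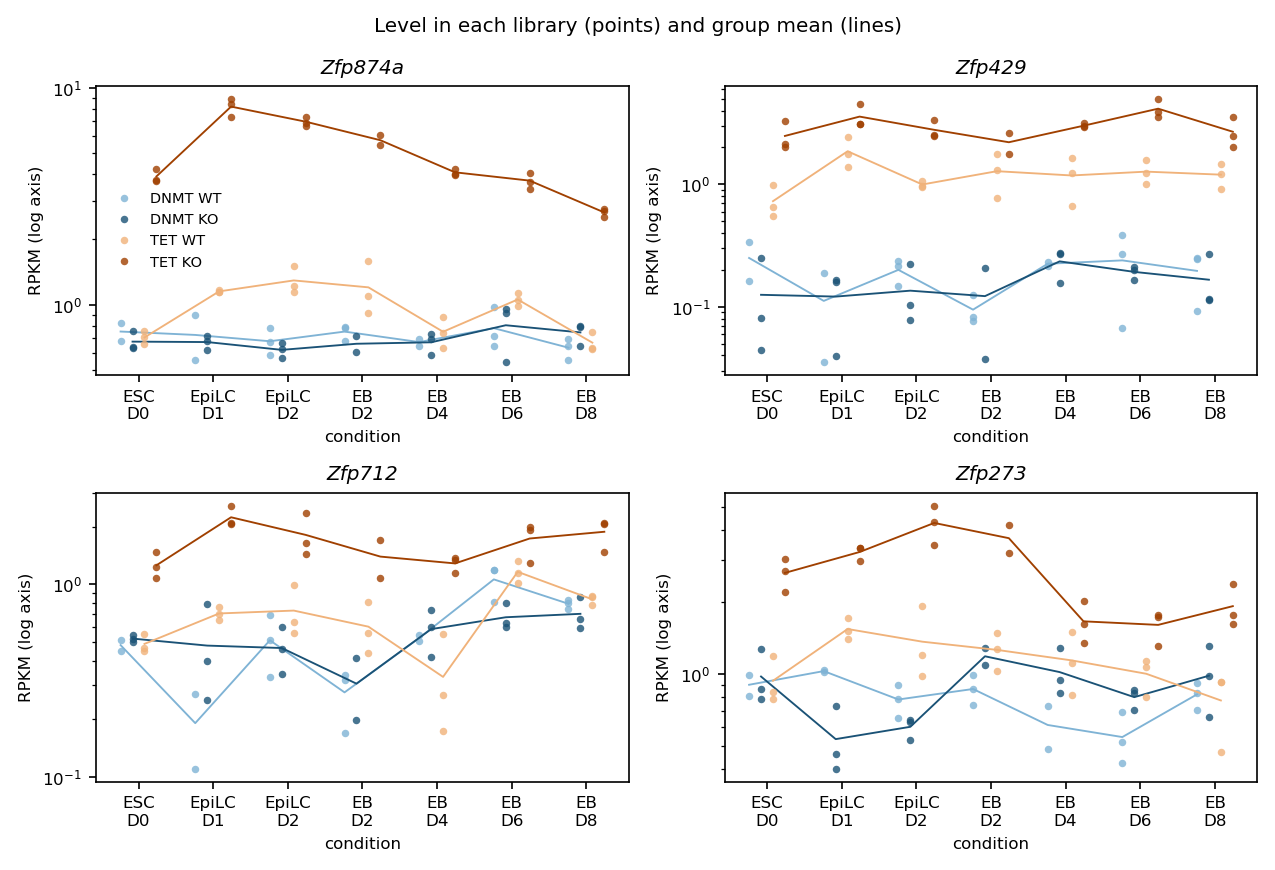
RPKM (log axis) of Zfp874a, Zfp429, Zfp712 and Zfp273 by condition, with a point for each library, a colour for each genotype and lines through the group means. TET KO libraries of Zfp874a lie above the TET WT libraries in all 7 conditions, by 1.44 to 2.39 on the fitted log2 scale, and both DNMT lines stay between 0.543 and 0.977 RPKM.

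The run did not move as a block. Of its 23 members, 21 were tested, and Zfp457 and Zfp458 were too low. Averaged over the 7 conditions, the TET KO change of the 21 had a median of 0.44. The median was 0.14 over the 162 members, 0.10 over zinc finger genes of other chromosomes and 0.08 over all genes. The change was positive for 16 of the 21, and the share of all genes with a positive change is not given. Under the same average Zfp874a (1.85), Zfp429 (1.03), Zfp273 (0.92) and Zfp712 (0.86) were at one end, and Zfp459 (-0.43), Zfp953 (-0.31), Zfp456 (-0.27) and Zfp595 (-0.25) at the other. Zfp874a and Zfp459 lie next to each other. The median of the run was 0.70 at ESC D0, 0.49 at EpiLC D1, 0.31 at EpiLC D2, 0.19 at EB D2, 0.31 for EB D4, 0.41 for EB D6 and 0.67 for EB D8. In DNMT KO the average over conditions had a median of 0.04 in the run. The 7 other tested genes inside the stretch had a median TET KO change of 0.47, while all 599 tested genes of chromosome 13 that are not members had a median of 0.08. The 11 tested members of chromosome 13 outside the run had a median of 0.14.

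**Figure D4:**
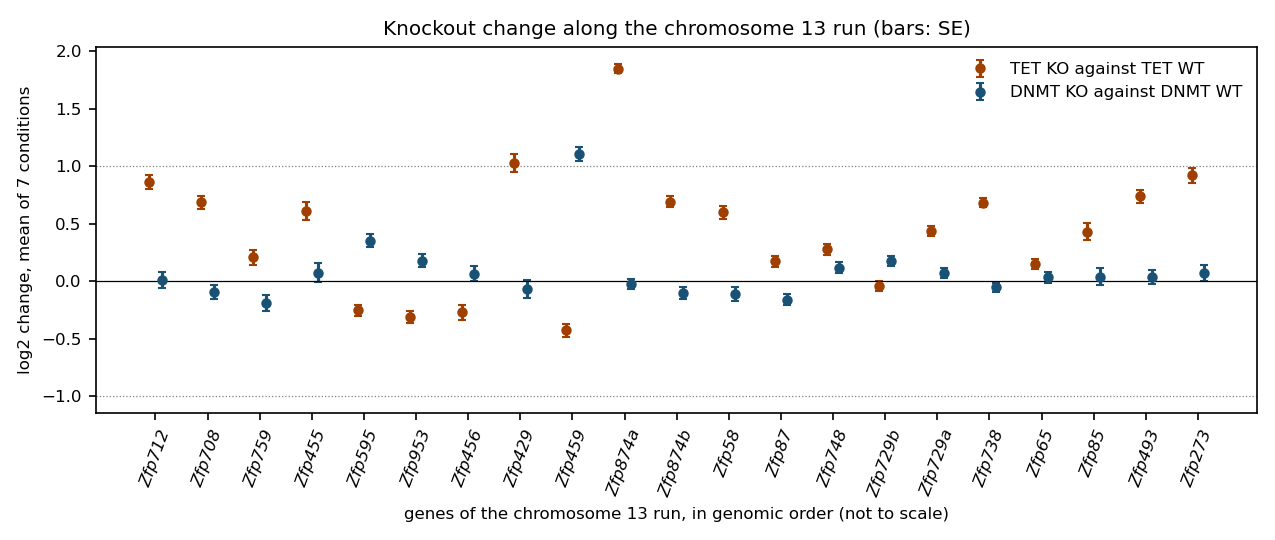
Change in TET KO and in DNMT KO, averaged over 7 conditions, for the 21 tested genes of the chromosome 13 run in chromosomal order. Points are log2 changes on the log2(RPKM + 0.5) scale and bars are standard errors. TET KO points reach from -0.43 at Zfp459 to 1.85 at Zfp874a, and the highest DNMT KO point is Zfp459.

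Outside the run, Zfp607b on chromosome 7 was also higher in TET KO ESCs. It was at 0.723, 0.756 and 1.23 RPKM in TET WT and 3.38, 3.56 and 3.61 in TET KO (1.54 ± 0.13), while DNMT WT had 5.89 and 6.39 and DNMT KO 4.39, 4.99 and 5.59. TET WT was thus the line that stood apart from the other three. Zfp787 was at 2.13, 2.52 and 3.06 RPKM in TET WT at EpiLC D2 and 7.82, 9.06 and 10.1 in TET KO (1.63 ± 0.17), without overlap. Zfp36 was called at 4 conditions in TET KO. At EB D4 it was at 4.93, 5.01 and 7.67 RPKM in TET WT and 11.1, 12.2 and 14.6 in TET KO (1.06 ± 0.16), the highest levels of this gene in the series. Zfp677 (1.28), Zfp54 (1.02) and Zfp97 (1.01, at EpiLC D1) were called once each, the first and second at EB D4. The EB D4 rises other than that of Zfp874a were under the threshold with centred libraries, where Zfp677 was at 0.99, Zfp712 at 0.83, Zfp429 at 0.81, Zfp36 at 0.76, Zfp455 at 0.75 and Zfp54 at 0.72. So were those of Zfp36 at EB D2 (0.91) and EB D6 (0.92), which left its call at EpiLC D2, and that of Zfp708 at EpiLC D2 (0.94).

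Of the 4 members that fell in TET KO, 3 were among those that were high in late DNMT KO. The same overlap over all genes is not given, so it is not read as a trait of the members. Zfp819 fell at EpiLC D1, EpiLC D2 and EB D2. At EpiLC D2 it was at 16.9, 21.1 and 25.3 RPKM in TET WT and 4.86, 5.28 and 5.50 in TET KO (log2 change -1.90 ± 0.16). The DNMT lines had 5.42 to 7.59 RPKM at this condition, so TET WT was the highest of the 4 lines. Zfp296 fell at EpiLC D1 (-1.22) and Zfp459 at EpiLC D2 (-1.13), as did Zfp771 (-1.13). Marker levels differed at these conditions too. At EpiLC D1 the sum of 5 naive markers was 287 to 304 RPKM in TET WT against 99.3 to 122 (2 lower). At EB D2 it was 128 to 141 against 51.1 to 51.6 (3 lower), and 1 of 5 fibroblast markers was higher. At EpiLC D2, 1 naive and 2 of 3 EpiLC markers were lower and 1 of 4 mesoderm markers was higher. Of 3 neural markers, 2, 2 and 1 were lower at EpiLC D1, EpiLC D2 and EB D2. The part of cell state in the falls was not tested. In TET KO embryoid bodies, Zfp936 rose at EB D6 (1.24) and EB D8 (1.23), where it was at 0.174, 0.304 and 0.423 RPKM in TET WT and 1.15, 1.45 and 1.49 in TET KO. The TET KO libraries were above the TET WT ones without overlap. Zfp977 rose at EB D8 (1.06, and 0.90 with centred libraries).

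At EB D8 the members were shifted slightly upwards in TET KO as a group. The median change was 0.34, beside 0.33 for zinc finger genes on other chromosomes and 0.11 over all genes. The change was positive for 139 of 162, and the share of all genes with a positive change is not given. With centred libraries the median was 0.18, beside -0.05 over all genes. KRAB-like members (0.36) and the others (0.33) had like medians. Blood and endothelial markers fell in these libraries, with a sum of 5316 to 5764 RPKM in TET WT and 29.1 to 38.7 in TET KO and 5 of 5 called. Other marker sums moved too. That of 3 endoderm markers was 361 to 387 RPKM against 17.6 to 21.4 (2 of 3 lower), that of 5 fibroblast markers 206 to 273 against 50.6 to 61.8 (3 lower, 1 higher), that of 3 EpiLC markers 3.05 to 4.85 against 44.1 to 53.3 (3 of 3 higher) and that of 4 mesoderm markers 18.6 to 20.1 against 34.1 to 40.5 (2 higher). Of 5 naive markers 2 were higher and 3 lower, and 0 of 3 neural markers were called. The part of cell composition in the shift was not tested.

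The signed TET KO effect at EB D8 minus that at ESC D0 was 1.18 for Zfp819, 1.06 for Zfp936, 1.01 for Zfp296 and -1.12 for Zfp607b. For Zfp819 the effect was -0.90 in ESCs and 0.27 (adjusted p = 0.23 by limma) at EB D8, so it was larger in size in ESCs. For Zfp936 it went from 0.17 to 1.23, for Zfp296 from -0.12 to 0.89 and for Zfp607b from 1.54 to 0.41. By this contrast 3 members were called higher and 1 lower, beside 6.39% and 6.86% of all genes (13.2%). Without the replicate 3 libraries the differences were 0.99 for Zfp819 and 0.74 for Zfp296, and without the replicate 1 libraries 0.95 for Zfp936, each under the threshold.

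The knockouts were compared directly on the mean of the 7 conditions. In DNMT KO 4 members were higher on this mean and 0 lower, beside 1.77% and 0.177% of all genes (1.95%). These were Zfp459 (1.11 ± 0.06), Zfp819 (1.10), Zfp936 (1.02) and Zfp296 (1.004), and without the replicate 1 libraries or the replicate 3 libraries Zfp296 was at 0.98 or 0.96, and without the replicate 2 libraries Zfp936 was at 0.95. With centred libraries 2 of the 4 stayed called, as Zfp296 was at 0.98 and Zfp936 at 0.99, and with a pseudocount of 1 none did (0.79 to 0.96). In TET KO 2 were higher, Zfp874a and Zfp429, and Zfp819 was lower (-1.04), beside 1.66% and 0.845% of all genes (2.51%). With centred libraries the TET KO calls were 1 higher and 1 lower, beside 181 and 179 of the 15267 genes tested. The DNMT KO effect exceeded the TET KO effect by 2.14 ± 0.10 for Zfp819, 1.54 ± 0.08 for Zfp459 and 1.17 ± 0.10 for Zfp296, and was smaller by 1.88 ± 0.06 for Zfp874a and 1.09 ± 0.11 for Zfp429. These 3 and 2 members stand beside 3.24% and 3.29% of all genes (6.53%). Called at any condition in both knockouts were 7 members, Zfp296, Zfp36, Zfp459, Zfp819, Zfp936, Zfp97 and Zfp977. They were 31.8% of the 22 called in each knockout, while over all genes the 2323 called in both were 56.4% of those called in DNMT KO and 51.7% of those called in TET KO. Of the 7, Zfp296, Zfp459 and Zfp819 rose in DNMT KO and fell in TET KO, at different conditions. The share of all genes with such opposite calls is not given.

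The other members with roles known outside this study had mean changes under the size threshold. Zfp568 ranged from 17.2 to 43.8 RPKM over the 28 group means and had a mean change of 0.02 ± 0.05 in DNMT KO and 0.08 ± 0.04 in TET KO (adjusted p = 0.73 and 0.077). At EpiLC D1 it was at 27.999, 31.4 and 31.6 RPKM in TET WT and 17.3, 17.8 and 21.6 in TET KO, without overlap but with a change of -0.67, below the size threshold. Zfp131, a BTB-domain zinc finger protein (8.30 to 15.5 RPKM), Zfp260, a cardiac transcription factor (3.74 to 18.8), Zfp346 (4.49 to 9.93), Zfp318, which acts in B cell antibody transcription (1.62 to 5.93), Zfp369, a relative of Zfp110 (1.25 to 5.03), and Zfp367 (3.50 to 6.43) had them between -0.40 and 0.46 in both knockouts.

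Promoter features were set against the changes as a description. Within the chromosome 13 run, the 9 tested members with GGGAANTGTAGT had a median TET KO change over the 7 conditions of 0.60 (from -0.31 to 1.85) and the 6 without it 0.38 (from -0.43 to 1.03). Outside the run the medians were 0.12 (19 members) and 0.13 (98 members). For the DNMT KO change at EB D8, the median fell with CpG content, from 0.24 in 24 members with at most 4 CpG in the window to 0.12 (5 to 9 CpG, 42 members), 0.06 (10 to 14 CpG, 37 members) and -0.21 (15 or more, 29 members). For the TET KO change over the 7 conditions the medians in the same order were 0.142, 0.064, 0.129 and 0.162. Such medians over all genes are not given, and CpG content was not separated from run or kind of gene.

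The partners of KRAB proteins were measured in the same libraries. Trim28 was at 92.7 to 632 RPKM over the 79 libraries, far above the zinc finger genes per length. Of 13 partner and H3K9 methylation genes, called changes in the knockouts were at DNMT KO EB D6 only, where Smarcad1 rose (1.18) and Suv39h1 fell (-1.88). In wild-type cells Trim28 fell from ESC D0 to EB D8 by 1.61 in DNMT WT and 1.22 in TET WT on the log2 scale.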

How the data were processed

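RNA was sequenced from 79 libraries of 4 lines, with oligo-dT selection and a stranded kit, per the labels' protocols. The authors deposited 1 table of log2 RPKM per gene and library. Trimming with Trim Galore 0.6.1 and cutadapt 1.18 and alignment with HISAT2 2.1.0 to GRCm38 are named in the submitters' processing notes. The counting tool and the annotation were not given in the sources used here. One DNMT WT EpiLC D1 column matched its group only and was used as an unnumbered replicate. Values were taken back to RPKM, and genes listed under more than 1 entry were used once. The depth of 7.76 to 13.9 M reads per library (median 11.2) was derived from olfactory receptor genes, most of which have no read. Their median was taken as the value stored for no read, 0.9 of a read. The lowest levels given can thus stand for no read. With this depth, low values were whole multiples of the value of 1 read (100% of the members' values and 97.1% over all genes within 0.1 read, for 1 to 100 reads). One read of a 2 kb transcript is worth 0.0644 RPKM in the shallowest library.

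Differences were tested with limma 3.58.1 in R 4.3.3 on log2(RPKM + 0.5), after a filter of 1 RPKM in at least 2 libraries, with trended and robust variance and Benjamini-Hochberg adjustment over 15267 genes. A call needed both a log2 change of 1 or more and an adjusted p below 0.05. Each condition was fitted over its 4 genotypes, and means, differences of effects and wild-type courses over all groups they need. The fit was tested on simulated data. KRAB-like boxes and fingers were found in translated GENCODE coding sequences, promoters came from RefSeq (GRCm38.p6), and shared sequence was counted as 50-base words of the exons found in another gene. Alternatives were pseudocounts of 0.1 and 1, no filter, centring of each library, subtraction of the chromosome's median change, a replicate block, each library left out and, chosen after the data were seen, limma voom on the recovered reads.

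The members, lists and motifs were chosen with earlier results of these data known. Genes named are the called members of largest change (up to 10 in each direction for the mean of 7 conditions, up to 2 for a single condition, up to 3 for differences of effects), up to 5 wild-type changes shared by both lines in each direction, the 8 most abundant, the 6 most variable, the 3 nearest to 1 RPKM on each side, and members with known roles. Further called members were named after their values were seen.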

Additional observations from a re-analysis of the deposited data

Results flagged for a closer look

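The following members differed between knockouts or between times by a limma contrast of the effects themselves. No group had 4 or more libraries, so single libraries were not screened for outlying values. Between the knockouts, the DNMT KO effect minus the TET KO effect on the mean of 7 conditions was 2.14 for Zfp819, 1.54 for Zfp459 and 1.17 for Zfp296, and -1.88 for Zfp874a and -1.09 for Zfp429. Zfp429 was at 0.0354 to 0.383 RPKM in the DNMT WT libraries and 0.556 to 2.42 in the TET WT libraries. Between times, the DNMT KO effect at EB D8 minus that at ESC D0 was 4.09 for Zfp459, 3.83 for Zfp936 and 3.56 for Zfp296, and -1.56 for Zfp629 and -1.42 for Zfp768. Zfp629 and Zfp768 were at under 1 RPKM in the DNMT lines as ESCs. The TET KO effect at EB D8 minus that at ESC D0 was 1.18 for Zfp819, 1.06 for Zfp936, 1.01 for Zfp296 and -1.12 for Zfp607b. Zfp819 in TET KO at EB D8 was at 0.170, 0.233 and 0.591 RPKM against 0.0330, 0.231 and 0.279 in TET WT, so its contrast rests on the lower level of TET KO in ESCs (6.23, 6.26 and 7.44 RPKM against 12.6, 12.8 and 13.1).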

How the results depend on the processing

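The 82 pairs of a gene and a comparison followed here are the called changes picked by size under the naming rule. Called members named later are not among them. Some of those were not called under an alternative, such as Zfp948 in DNMT KO at EB D4 with no filter and Zfp712 in TET KO at EB D4 with centred libraries. Of the 82 pairs, none changed direction. All 82 stayed called with no filter, with a pseudocount of 0.1, with the replicate block and with voom. Under the threshold were 14 with a pseudocount of 1, 7 with centred libraries, 3 after subtraction of the chromosome's median, and 10 of 328 values with a library or replicate left out. Counts of called members moved as well. The pairs were picked for large changes, while the counts include members near the threshold, so pairs and counts are not compared. The counts below stand without the shares over all genes and do not compare the members with other genes.

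With a pseudocount of 0.1, the DNMT KO counts were 1 for ESC D0, 1 for EpiLC D1 and 8 for EB D4. Those of TET KO were 9 for ESC D0, 15 for EpiLC D1, 7 for EB D2, 14 for EB D4, 13 for EB D8 and 6 on the mean of 7 conditions. The same pseudocount gave 8 for the difference between knockouts, 28 for DNMT WT at EpiLC D2 and 10 for the TET KO effect at EB D8 minus ESC D0. With a pseudocount of 1 they were 3 in DNMT KO at EB D4 and 0 on its mean, and in TET KO 4 for EpiLC D1, 3 for EB D4, 2 for EB D6, 1 for EB D8 and 1 on the mean, with 10 for DNMT WT at EpiLC D2 and 1 for the TET KO effect over time. With centred libraries they were 3 in DNMT KO at EB D4, 2 on its mean and 3 in TET KO at EB D4, and with the chromosome's median subtracted 3 in TET KO at EB D4.

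Voom on recovered reads gave, in DNMT KO, 2 calls for ESC D0, 1 for EpiLC D1, 9 for EB D4, 28 for EB D6 and 28 for EB D8. In TET KO it gave 12 for ESC D0, 19 for EpiLC D1, 17 for EpiLC D2, 9 for EB D2, 16 for EB D4, 7 for EB D6, 15 for EB D8 and 8 on the mean. It gave 10 for the difference between knockouts, 29 for DNMT WT at EpiLC D2 and 13 for the TET KO effect over time. Voom adds no pseudocount of 0.5 RPKM, so its changes of low genes are larger. The cause of the other moves was not tested.

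Leaving out 1 library gave 0 to 1 calls in DNMT KO at EB D2 (1 without DNMT KO replicate 3), 2 to 6 for EB D4, 18 to 20 for EB D6 and 17 to 19 for EB D8. In TET KO the range was 5 to 6 for ESC D0, 6 to 8 for EpiLC D1, 10 to 12 for EpiLC D2, 3 to 7 for EB D2, 5 to 8 for EB D4, 4 to 5 for EB D6 and 2 to 6 for EB D8. Where it left 1 library in a group, that library was assumed to vary like the others.

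Same-numbered replicates did not deviate together (36 pairs, r from -0.214 to 0.217, 5 over 0.1), so the numbers were not taken as pairs. The replicate block gave 3 calls in DNMT KO at EB D4 in place of 5, and moved no other count by over 1.5 times. Depth limits low members: at 0.0644 RPKM per read of a 2 kb transcript, values under 0.5 RPKM rest on few reads.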
